A study of Sus scrofa with 12 samples.

Results

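The glucocorticoid receptor and a set of genes tied to its action were followed in the liver of Jinhua (JH) and Landrace (LD) pigs. The set held 6 genes, taken from 31694 rows of an mRNA table by gene symbol, namely NR3C1, HSD11B1, FKBP5, TSC22D3, SGK1 and KLF15. The mRNA libraries came from 3 JH pigs and 3 LD pigs, all uncastrated males sampled at 70 days of age, with LD as the control breed. Expression was given as RPKM, a read number scaled to gene length and to the reads of the library. Levels may be compared between genes only as far as the gene lengths used for the scaling hold. Each library's total behind its RPKM, recovered from the values of low genes, was between 5744908 and 7914516 reads per library. The breeds were compared with limma on log2(RPKM + 0.1), a scale that understates the change of low genes. Calls needed an adjusted p under 0.05 together with a log2 fold change above 1 or below -1, and each fold change is JH over LD.

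Cortisol enters hepatocytes and binds the glucocorticoid receptor, which is held by HSP90 and its co-chaperones until the hormone is bound and which then acts as a transcription factor. In blood most cortisol is carried by corticosteroid-binding globulin, a liver protein, and in the liver cortisol can be made again from cortisone or be cleared by reduction of its ring. Among the genes the receptor is known to induce are feedback inhibitors such as FKBP5 and enzymes of amino acid use and gluconeogenesis.

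The libraries JH3 and LD3 stood apart from the rest. The ribosomal RNA gene RN18S was at 5991, 1570 and 62257 RPKM in JH1, JH2 and JH3 and at 7309, 2108 and 20160 RPKM in LD1, LD2 and LD3. The median log2 value over the tested genes was 2.10 in both JH3 and LD3, and lay between 2.35 and 2.42 in the other 4 libraries.

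No member of the set was called between the breeds. All JH values of FKBP5 lay above its LD values and all those of SGK1 lay below, while NR3C1 and TSC22D3 overlapped between the breeds. HSD11B1 and KLF15 were listed at 0 in all 6 libraries and were not tested. Of the 4 members tested, limma called 0 and 1 had an unadjusted p under 0.05, while limma's voom on recovered reads called 1, which was FKBP5. Among all 12991 genes tested, 310 were called, which is 2.39%, with 1.36% called lower in JH, and 17.9% had an unadjusted p under 0.05. All JH values lay above all LD values in 10.8% of the tested genes and below them in 12.5%, beside 1 of the 4 tested members on each side, too few to set a share against that background.

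NR3C1 encodes the glucocorticoid receptor itself. Its level was 6.76, 7.66 and 6.72 RPKM in JH1, JH2 and JH3 and 8.57, 7.35 and 9.11 RPKM in LD1, LD2 and LD3, from 298 to 553 recovered reads. The breeds overlapped, since JH2 lay above LD2. The log2 fold change was -0.24 (standard error, SE, of 0.23, 95% confidence interval -0.75 to 0.28), with an adjusted p of 0.631 in limma and an exact permutation p of 0.2, two-sided. With 3 pigs against 3 the smallest exact p is 0.1. Among its replicates NR3C1 was the steadiest of the tested members, with a coefficient of variation of 7.54% in JH and 10.8% in LD, against a median over all tested genes of 27.2% and 23.1%.

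HSD11B1 encodes the enzyme that makes cortisol from cortisone inside the cell. It was listed at 0 in all 6 libraries, and so was KLF15, a transcription factor induced by glucocorticoids that acts in amino acid breakdown. A value of 0 in this table need not mean absence. APOB, B2M and HPRT1, which liver or every cell uses, were also listed at 0 throughout; they were found among 12 widely used genes, 10 of them with a row, that were looked up after the values were seen. For HSD11B1 and KLF15 it can only be said that the table lists them at 0.

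FKBP5 encodes a co-chaperone that lowers the hormone binding of the receptor and is itself strongly induced by it. Its level was 29.9, 16.3 and 30.4 RPKM in JH1, JH2 and JH3 and 4.96, 5.07 and 15.4 RPKM in LD1, LD2 and LD3. JH2 was the lowest JH pig and LD3 the highest LD pig, and these 2 values nearly met. The log2 fold change was 1.74 (SE 0.45, 95% confidence interval 0.71 to 2.76), the largest of the tested members, and it missed the threshold with an adjusted p of 0.0920 by limma. The exact permutation p was 0.1, two-sided, the smallest that 3 against 3 allows. The call depended on the method and on 1 library. It passed with voom on recovered reads, with an adjusted p of 0.0442, and without LD3, with a log2 fold change of 2.27 and an adjusted p of 0.0227. Over all 14 alternatives the adjusted p ranged from 0.0227 to 0.254. The reads behind FKBP5 ranged from 147 in LD1 to 983 in JH3, a counting error of 3.19% to 8.25%, while the coefficient of variation between pigs was 31.4% in JH and 70.8% in LD. Bulk liver was sequenced, so fewer cells of a type and less RNA per cell cannot be told apart for this or any other gene.

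SGK1 encodes a kinase of ion transport and cell survival that glucocorticoids induce in many tissues. Its level was 19.01, 14.39 and 17.03 RPKM in JH1, JH2 and JH3 and 39.29, 22.76 and 20.03 RPKM in LD1, LD2 and LD3. LD1 stood well above the other 5 pigs, and LD3 lay close above JH1. The log2 fold change was -0.64 (SE 0.30, 95% confidence interval -1.32 to 0.03), with an adjusted p of 0.302 in limma and an exact permutation p of 0.1, two-sided. Without LD1 it was -0.35.

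TSC22D3 encodes GILZ, a leucine zipper protein of the anti-inflammatory response that is induced by glucocorticoids. Its level was 19.2, 16.4 and 43.7 RPKM in JH1, JH2 and JH3 and 16.2, 27.9 and 28.2 RPKM in LD1, LD2 and LD3. The breeds overlapped, with JH3 the highest of all, LD1 the lowest and JH2 just above LD1. The log2 fold change was 0.04 (SE 0.40, 95% confidence interval -0.86 to 0.93), with an adjusted p of 0.972 by limma and an exact permutation p of 0.9, two-sided. Its sign turned without JH3, to -0.39, and without LD1, to -0.23.

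**Figure D1:**
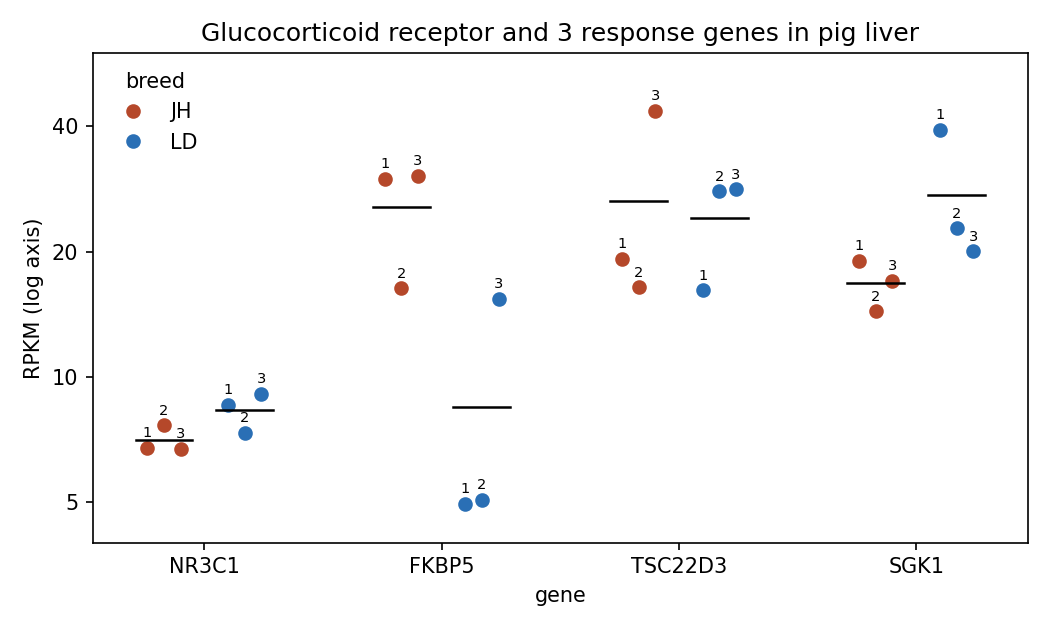
RPKM on a log axis of the 4 tested members in each library, with JH in red, LD in blue, the replicate number above each point and the mean of the breed as a line. FKBP5 lies between 16.3 and 30.4 in JH and between 4.96 and 15.4 in LD, and the JH points of SGK1 all lie below its LD points.

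The order of the members' levels was not the same in both breeds. In JH it ran from TSC22D3 with 26.4 ± 15.0 (SD, n = 3) RPKM and FKBP5 with 25.5 ± 8.01 (SD, n = 3) RPKM to SGK1 with 16.8 ± 2.31 (SD, n = 3) RPKM. NR3C1 came last in JH with 7.05 ± 0.532 (SD, n = 3) RPKM, below every value of the other tested members, whose own ranges overlapped. In LD the order began with SGK1 at 27.4 ± 10.4 (SD, n = 3) RPKM and TSC22D3 at 24.1 ± 6.88 (SD, n = 3) RPKM, which overlapped. FKBP5 with 8.479 ± 6.001 (SD, n = 3) RPKM and NR3C1 with 8.34 ± 0.902 (SD, n = 3) RPKM overlapped at the low end. The change in order between the breeds was not tested.

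Ratios within a library do not depend on how that library was scaled, and 6 of them were computed, chosen after the values were seen. FKBP5 per NR3C1 was 4.42, 2.13 and 4.53 in JH1, JH2 and JH3 and 0.579, 0.690 and 1.69 in LD1, LD2 and LD3. The JH ratios all lay above the LD ratios, with an exact permutation p of 0.1, two-sided. FKBP5 per FKBP4, the co-chaperone that favours hormone binding and competes with FKBP5 for the receptor complex, was 0.123, 0.0870 and 0.126 in JH and 0.0335, 0.0305 and 0.0879 in LD. Here LD3 reached just above JH2, so the breeds overlapped (exact permutation p = 0.2, two-sided). FKBP5 per TSC22D3 was 0.697 to 1.56 in JH and 0.181 to 0.546 in LD, apart between the breeds (exact permutation p = 0.1, two-sided). FKBP5 per SGK1 was 1.13 to 1.79 in JH and 0.126 to 0.769 in LD. Its exact permutation p of 0.1, two-sided, was fixed in advance, since all JH values lay above for FKBP5 and below for SGK1. SGK1 per NR3C1, at 1.88 to 2.81 in JH and 2.20 to 4.58 in LD, overlapped between the breeds though SGK1 alone did not (exact permutation p = 0.4, two-sided). TSC22D3 per NR3C1 overlapped as well, at 2.14 to 6.49 in JH and 1.88 to 3.80 in LD (exact permutation p = 0.7, two-sided). The level of FKBP5 was well below that of FKBP4 in every library.

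Of the other genes of the pathway, 79 were listed by role, 72 had a row and 57 were tested. Of these 57, limma called 3, all lower in JH, where 2.39% of all genes tested were called and 1.36% called lower in JH. An unadjusted p under 0.05 was found for 10 of the 57, against 17.9% of all genes tested. The median log2 fold change of the 57 was -0.06, against 0.04 over all genes tested. These shares are also the background for the counts of each list and family below. The called genes were SERPINA6, AKR1D1 and GLUL.

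The supply and clearance of the hormone held the 2 called genes with the largest fold changes. SERPINA6, the gene of corticosteroid-binding globulin, was at 17.2, 14.1 and 14.8 RPKM in JH1, JH2 and JH3 and at 312, 317 and 299 RPKM in LD1, LD2 and LD3. The pigs of a breed were close to each other, and the mean in LD was 20.1 times that in JH. Its log2 fold change came to -4.33 ± 0.22 (SE; adjusted p = 3.23e-05 in limma), it lay between -4.41 and -4.27 with any 1 of the 6 libraries left out, and the call held each time. AKR1D1, the reductase that starts the breakdown of cortisol and also acts in bile acid synthesis, was at 76.2, 52.8 and 78.8 RPKM in JH and at 264, 276 and 285 RPKM in LD. All JH values lay below all LD values, with -2.01 ± 0.24 (SE) as log2 fold change (adjusted p = 0.00578 by limma), and the call held whichever of the 6 libraries was left out.

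The other genes of hormone supply were low or not called. The mineralocorticoid receptor NR3C2, which also binds cortisol, was at 0.327 to 0.789 RPKM on 8 to 15 reads, with a log2 fold change of 0.52 (adjusted p = 0.599 in limma). HSD11B2, which inactivates cortisol in kidney, had at most 1 read in any library. SRD5A1, with at most 0.917 RPKM, and SRD5A2, with at most 0.470 RPKM, did not pass the filter on low values. The exporter ABCB1 had a log2 fold change of -0.10 (adjusted p = 0.873 by limma), between -0.22 and 0.070 with 1 library left out. Hence 2 of the 4 tested genes of this list fell and 2 were not called.

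Chaperones of the receptor had no call. All 11 listed genes were tested, and 10, all but HSP90AB1, had a log2 fold change above 0, also under quantile normalization and median scaling, as did 6877 of all 12991 genes tested. The median was 0.39, and limma and voom both called 0 of the 11, with 0 at an unadjusted p under 0.05. HSP90AA1, the inducible form of HSP90 and the most abundant of them, was at 856, 599 and 1164 RPKM in JH and at 627, 565 and 561 RPKM in LD. JH2 fell within the LD range, and the log2 fold change came to 0.53 ± 0.29 (SE; adjusted p = 0.374 in limma). FKBP4 was at 242, 187 and 241 RPKM in JH and at 148, 166 and 175 RPKM in LD, with 0.45 ± 0.23 (SE) as log2 fold change (adjusted p = 0.356 by limma). FKBP4, PTGES3 and PPID were the 3 of the 11 chaperones with all JH values above all LD values, against 10.8% of all genes tested. DNAJA1, second in abundance, overlapped between the breeds (log2 fold change 0.41, adjusted p = 0.526 in limma).

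Coregulators, the proteins through which the receptor activates or represses transcription, mostly had fold changes a little below 0. Of 10 tested, 8 had a log2 fold change below 0, as did 6114 of all 12991 genes tested, and the median was -0.35. An unadjusted p under 0.05 was found for 2, against 17.9% of all genes tested. The number called was 0 with limma and 1 with voom, which was NRIP1. NRIP1, a repressor recruited by nuclear receptors, was at 2.34, 2.41 and 3.24 RPKM in JH and at 5.230, 4.996 and 5.788 RPKM in LD. The breeds were apart, and its adjusted p over all alternatives ranged from 0.0493 to 0.223. Its log2 fold change came to -0.99 ± 0.25 (SE; adjusted p = 0.0850 by limma). The coactivator NCOA2 was at 1.78, 2.09 and 3.42 RPKM in JH and at 4.13, 4.21 and 5.05 RPKM in LD, with -0.90 ± 0.30 (SE) as log2 fold change (adjusted p = 0.166 in limma). The most abundant coregulators, MED1 and CRTC2, had log2 fold changes of -0.13 and 0.01, and that of CRTC2 turned to -0.08 under quantile normalization.

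Genes that glucocorticoids induce in many cell types were split in direction. Of 17 tested, 6 had a log2 fold change above 0 and 11 below 0, with a median of -0.06, and 1 was called. GLUL, glutamine synthetase, was at 53.8, 42.1 and 72.7 RPKM in JH and at 113, 194 and 135 RPKM in LD. All JH values lay below all LD values, with -1.39 ± 0.30 (SE) as log2 fold change (adjusted p = 0.0490 by limma). This call was at the edge of the threshold and was kept in 1 of the 6 fits that left out a library, the fit without JH3, with adjusted p of 0.107 to 0.167 without JH1, JH2, LD1, LD2 or LD3. In liver GLUL is known as a marker of the hepatocytes around the central vein.

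KLF9, a transcription factor induced by both glucocorticoids and thyroid hormone, had a mean level of 6.67 ± 3.92 RPKM in JH against 16.6 ± 9.82 RPKM in LD (SD, n = 3), lowest in JH2 with 2.46 and highest in LD3 with 27.3. The pigs of each breed differed widely, JH3 lay above LD1, and the log2 fold change of -1.35 (SE 0.56) was not called (adjusted p = 0.253 in limma). The abundant induced genes, CEBPD with values of 109 to 202 RPKM and ERRFI1 with values of 65.4 to 180 RPKM, overlapped between the breeds. Their log2 fold changes were -0.25 and -0.32 (adjusted p = 0.707 and 0.680 by limma). Above 0 were, among other known targets, the log2 fold changes of 0.70 for the clock gene PER1, 0.67 for the NF-kB inhibitor NFKBIA and 1.06 for the zinc finger gene ZBTB16, none of them called. These 3 were picked after their values were seen. Without LD1, PER1 was at 0.13 and ZBTB16, with 2 reads in LD1, at 0.22. With a pseudocount of 1 ZBTB16 was at 0.55. NFKBIA lay between 0.54 and 0.82 with 1 library left out.

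Liver enzymes and secreted factors under glucocorticoid control gave no call. Of 10 tested, 4 had a log2 fold change above 0, with a median of -0.18, and limma and voom called 0. Of the 10, 3 had an unadjusted p under 0.05, against 17.9% of all genes tested. Tyrosine aminotransferase, TAT, a classical target in hepatocytes, was at 139, 185 and 482 RPKM in JH and at 167, 162 and 353 RPKM in LD. The highest value in each breed was that of JH3 and of LD3, and the log2 fold change came to 0.13 ± 0.48 (SE; adjusted p = 0.919 in limma). ANGPTL4, an inhibitor of lipoprotein lipase, was at 135, 135 and 136 RPKM in JH and at 25.3, 72.8 and 65.7 RPKM in LD. The JH pigs were nearly equal and all above the LD pigs, with a log2 fold change of 1.45 (SE 0.38) that missed the threshold (adjusted p = 0.0939 by limma). SDS, serine dehydratase, was at 11.5, 4.39 and 10.3 RPKM in JH and at 2.86, 2.57 and 5.76 RPKM in LD. JH2 lay below LD3, and the log2 fold change came to 1.18 ± 0.43 (SE; adjusted p = 0.194 in limma). FOXO1, a transcription factor of gluconeogenesis named after its values were seen, was at 5.76, 2.70 and 4.63 RPKM in JH and at 8.37, 9.24 and 9.31 RPKM in LD. All JH values lay below all LD values, and its log2 fold change of -1.09 (SE 0.30) missed the threshold (adjusted p = 0.108 in limma). CPS1, the first enzyme of the urea cycle, had values of 190 to 224 RPKM in JH and 249 to 307 RPKM in LD, with a log2 fold change of -0.40 (adjusted p = 0.400 by limma).

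Inflammatory genes that the receptor represses had no call. Of 11 listed genes, 5 were tested, limma and voom called 0, and 0 had an unadjusted p under 0.05. IL6, IL1B, CXCL8, CXCL2, SELE and PTGS2 did not reach the filter on low values. The median log2 fold change of the 5 was 0.10, and it was -0.02 under quantile normalization. NFKB1 had values of 9.17 to 21.7 RPKM, VCAM1 of 7.36 to 27.6 RPKM, CCL2 of 4.34 to 16.1 RPKM, TNF of 0.522 to 2.71 RPKM and ICAM1 of 0.715 to 1.43 RPKM. NFKB1, VCAM1 and TNF had log2 fold changes of -0.32, 0.10 and 0.39 with adjusted p of 0.688, 0.933 and 0.756 in limma, and that of VCAM1 was -0.02 under quantile normalization.

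**Figure D2:**
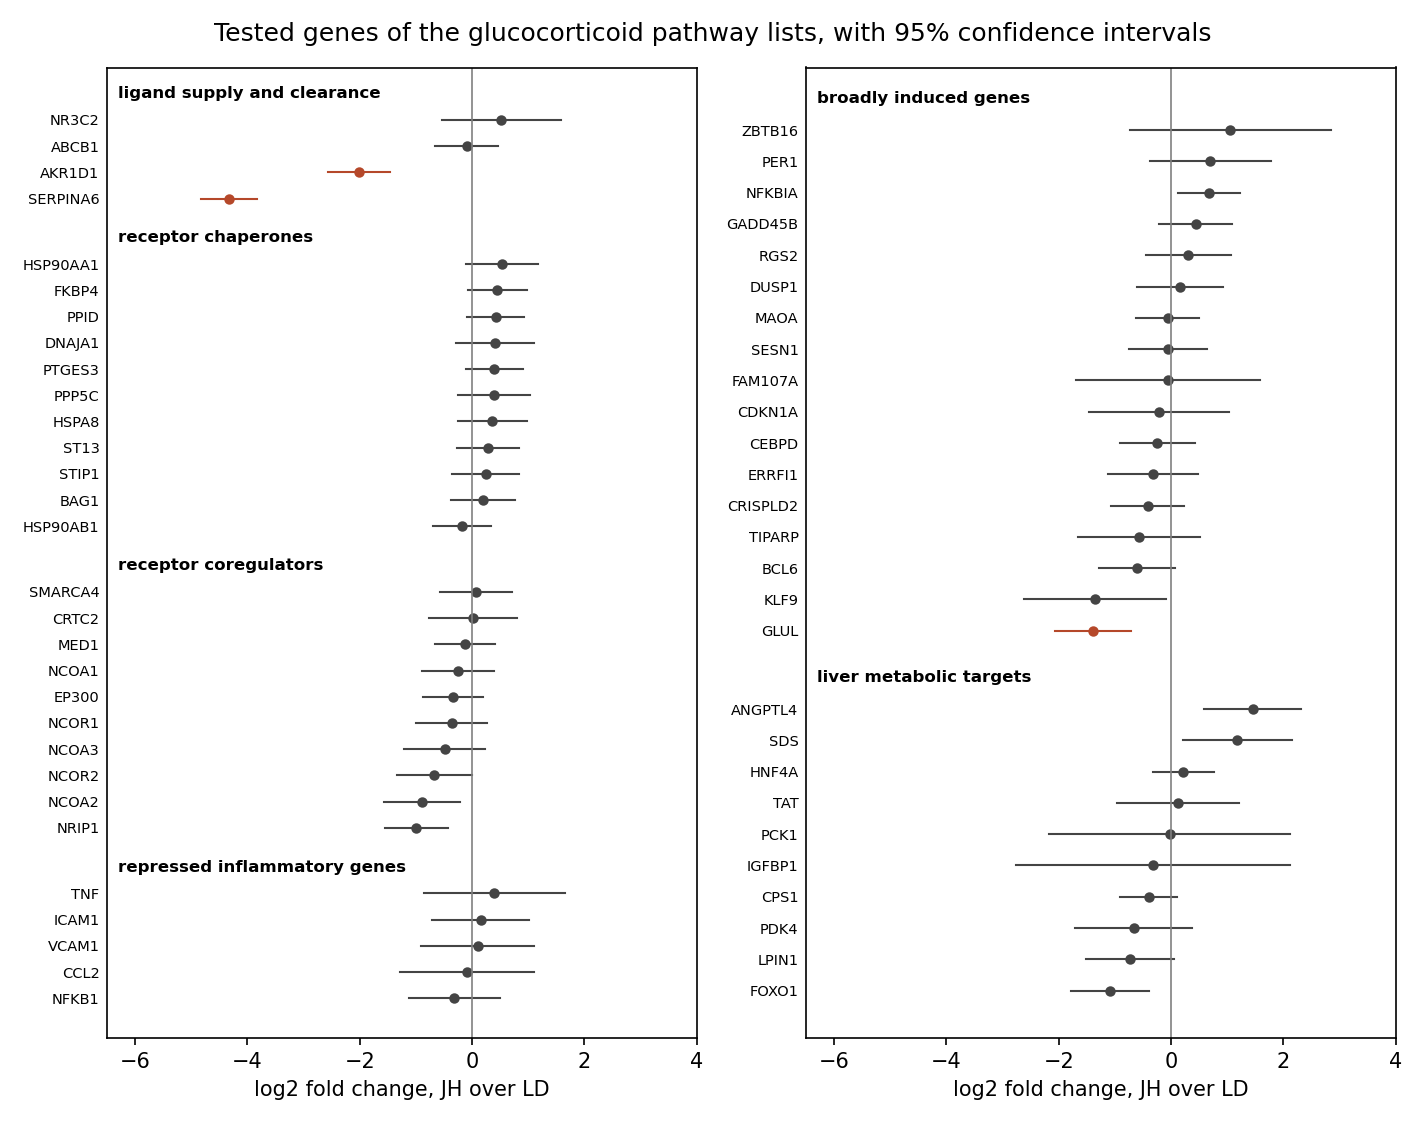
Log2 fold change of JH over LD with 95% confidence intervals from limma for the 57 tested genes of the pathway lists, grouped by role, with called genes in red. SERPINA6 at -4.33, AKR1D1 at -2.01 and GLUL at -1.39 are the called genes, and 10 of the 11 chaperones lie above 0.

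The induced genes also differed between pigs of the same breed. FKBP5, TSC22D3 and SGK1 together with the tested genes of the induced and liver target lists made 30 genes, a pooling made after the values were seen. The libraries counted below were also singled out from these values, and each is 1 pig, so the counts are a description. JH2 was the lowest JH pig in 19 of the 30, against 22.2% of all tested genes, and LD1 was the lowest LD pig in 19 of the 30, against 20.4% of all tested genes. JH3 was the highest JH pig in 15 and LD3 the highest LD pig in 16 of the 30, against 18.1% and 14.7% of all tested genes. After libraries were set to equal medians, JH2 was lowest in 21 and LD1 in 20 genes, and JH3 was highest in 21 and LD3 in 20 genes. On that scale the same held for 34.7% and 30.2% of all tested genes as lowest and for 34% and 33.3% as highest. The median deviation of the 30 genes from the breed mean of log2 values was -0.25 in JH2 and -0.34 in LD1, where that of all tested genes was 0.11 and 0.08. In JH1, JH3, LD2 and LD3 it was 0.06, 0.16, 0.22 and 0.19 for the 30 genes, so LD2 lay above LD3. That of all tested genes was 0.12, -0.20, 0.12 and -0.17 in these libraries.

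The whole order, with JH2 lowest and JH3 highest in JH and LD1 lowest and LD3 highest in LD, was shown by 6 of the 30 genes, against 1.42% of all tested genes. After libraries were set to equal medians it was shown by 8 of the 30, against 3.59% of all tested genes. The 6 genes were FKBP5, TSC22D3, KLF9, ZBTB16, NFKBIA and IGFBP1. For FKBP5 the order rested on a near tie of LD1 with 4.96 RPKM and LD2 with 5.07 RPKM. For TSC22D3 it rested on a near tie of LD2 with 27.9 RPKM and LD3 with 28.2 RPKM. IGFBP1, an insulin-like growth factor binding protein, was at 10.8, 8.78 and 87.2 RPKM in JH1, JH2 and JH3 and at 4.88, 40.3 and 83.5 RPKM in LD1, LD2 and LD3. Other genes among the 30, like these named after their values were seen, departed from the order. SGK1 was highest in LD1, and CDKN1A and BCL6 were lowest in LD3. PCK1, the enzyme that commits carbon to gluconeogenesis, was at 753, 85.0 and 28.0 RPKM in JH1, JH2 and JH3 and at 99.4, 113 and 169 RPKM in LD1, LD2 and LD3. Its JH pigs ran against the order, with JH1 highest and JH3 lowest, and spanned the LD pigs (log2 fold change -0.03, adjusted p = 0.993 in limma). With 1 library left out, that fold change ranged from -1.34 without JH1 to 1.03 without JH3. JH3 and LD3 were also the libraries with high RN18S, and JH2 had the highest sum of lymphocyte markers, 95.3 RPKM against 23.3 and 25.1 RPKM in JH1 and JH3. The part of library quality and of cell make-up in this order was not tested.

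**Figure D3:**
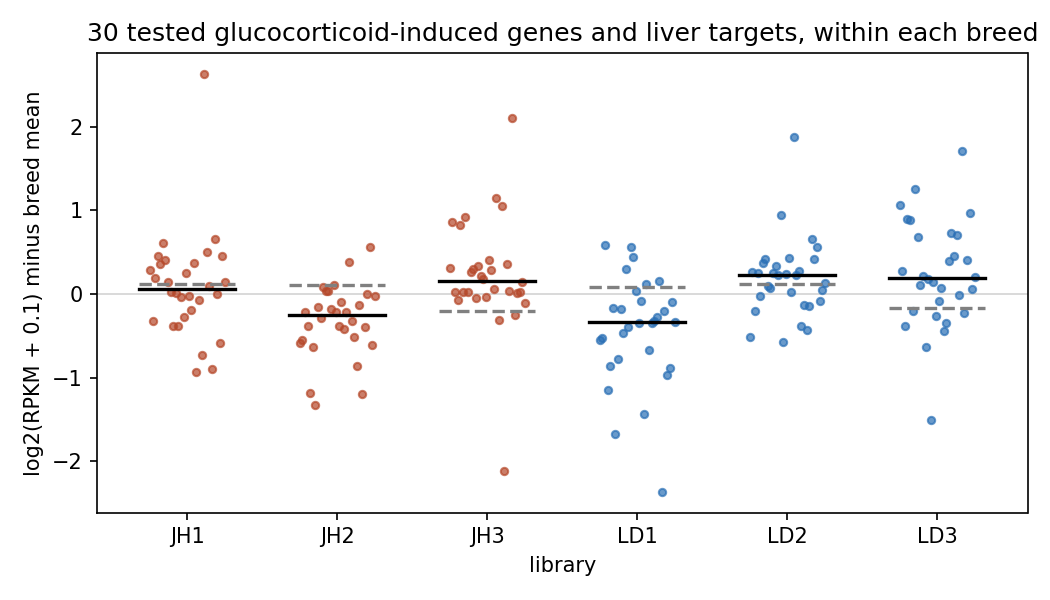
Deviation of log2(RPKM + 0.1) from the mean of the breed for 30 tested genes induced by glucocorticoids or under their control in liver, 1 point per gene and library, JH in red and LD in blue. Black lines are the medians of these genes, at -0.25 in JH2 and -0.34 in LD1, and dashed grey lines the medians of all tested genes, at 0.11 and 0.08.

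The genes most like each member were taken by Pearson r of log2 values over the 6 libraries, which include the difference between breeds that the genes share. Genes with a symbol starting with LOC were left out of this ranking, also where they were closer. For FKBP5 they were HSPA4 (r = 0.988), a heat shock protein, POLH (r = 0.986) and NDUFAF6 (r = 0.984). HSPA4 was at 27.3, 24.1 and 29.7 RPKM in JH and at 18.2, 17.9 and 23.0 RPKM in LD, thus with the same lowest JH pig and highest LD pig as FKBP5. For NR3C1 they were HECA (r = 0.992), GGTA1 (r = 0.982) and SESN3 (r = 0.975), and for SGK1 MON1B (r = 0.995), SLK (r = 0.990) and USP47 (r = 0.980). TSC22D3 had fewer close matches, and the closest of the genes kept were ZHX2 (r = 0.934), IGFBP1 (r = 0.930) and TIMP-3 (r = 0.926). With 6 libraries and 12991 genes such values of r arise easily, and they are given as a description.

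The liver origin of the samples was checked with markers of hepatocytes and other cells. Of 10 hepatocyte markers listed, the 9 with a row summed to 52629, 47839 and 51070 RPKM in JH and to 84629, 66608 and 82786 RPKM in LD, with ALB the most abundant and APOB listed at 0. Of the 8 tested, 7 had a log2 fold change below 0, with a median of -0.24. Under quantile normalization 0 were above 0, with a median of -0.35. Of these 8, limma called 0 and 3 had an unadjusted p under 0.05, and voom called 0 of the 5 with recovered reads, which ALB, TF and SERPINC1 lacked. The largest log2 fold changes were -1.13 for TF and -1.16 for CYP2E1, and that of ALB was -0.67. Without JH3, TF was called, with -1.48 and an adjusted p of 0.0339 in limma. Of 8 adrenal cortex markers listed, 6 had a row and none passed the filter. They summed to between 0.299 and 1.54 RPKM with CYP21A2 the most abundant, and CYP11A1, CYP17A1 and NR5A1 were listed at 0, which need not mean absence here.

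The marker lists of stellate cells, bile ducts and red cells had medians below 0. All 9 stellate and fibroblast markers had a log2 fold change below 0, also under quantile normalization and median scaling, with a median of -1.49. Of the 9, 3 were called, against 2.39% of all genes tested. They were COL1A1 (-2.77, adjusted p = 0.0144), COL1A2 (-1.78, adjusted p = 0.0442) and COL3A1 (-1.75, adjusted p = 0.0159), from limma. COL1A1 kept its call without any 1 library, and had an adjusted p of 0.0563 without replicate 3 of both breeds, an alternative chosen after seeing the data. COL1A2 lost its call without JH1, JH3, LD1 or LD2 (adjusted p of 0.0688 to 0.147 by limma), and COL3A1 without LD1 (0.0812) or LD2 (0.0674). The list summed to 86.7, 105 and 87.1 RPKM in JH and to 308, 397 and 200 RPKM in LD, with COL3A1 the most abundant. LUM and ACTA2 had log2 fold changes of -2.59 and -1.33 and were not called. LUM, with 0 to 60 reads, was at -1.11 with a pseudocount of 1, at -3.83 with 0.01 and at -1.81 without LD1. The 4 tested bile duct markers had a median of -1.63, and 1 was called, EPCAM (-1.54, adjusted p = 0.0301 in limma), which lost its call without JH1, JH2, LD1, LD2 or LD3 (adjusted p of 0.0565 to 0.111). This list summed to 16.05, 20.01 and 9.321 RPKM in JH and to 54.1, 48.3 and 21.9 RPKM in LD, SPP1 was the most abundant, KRT7 was listed at 0, and KRT19, SOX9 and SPP1 had log2 fold changes of -1.72, -2.07 and -1.11. With a pseudocount of 1 SOX9 was at -1.04. KRT19 missed the threshold with an adjusted p of 0.0716 in limma, and was called without LD3 (-2.12, adjusted p = 0.0415), under quantile normalization (0.0383) and under median scaling (0.0383). Of 2 tested erythroid markers ALAS2 was not called (-1.36) and HBB was (-1.39, adjusted p = 0.0460 by limma), though HBB lost its call without JH1, JH2, LD1, LD2 or LD3 (adjusted p of 0.0888 to 0.143). Without JH3, ALAS2 was called, with -1.95 and an adjusted p of 0.0313 in limma. The erythroid sum was 99.3, 90.2 and 122 RPKM in JH and 393, 214 and 236 RPKM in LD, nearly all from HBB.

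The remaining cell lists had no call by limma. Endothelial markers had a median log2 fold change of -0.48 over 7 tested genes of 8 listed, 2 above and 5 below 0, with -0.81 for PECAM1, the most abundant, -0.91 for KDR, -0.11 for LYVE1 and 0.11 for TEK, and summed to 56.2 to 60.8 RPKM in JH and 79.6 to 85.1 RPKM in LD. EMCN, the other gene above 0, rested on 1 recovered read in each library. Under quantile normalization KDR was called (-1.03, adjusted p = 0.0493 in limma). Macrophage markers had a median of 0.20 over 6 tested genes of 8 listed, with C1QA the most abundant and CD163 listed at 0, and summed to 625 to 1293 RPKM in JH and 1079 to 1264 RPKM in LD. The values were -0.20 for C1QA, 1.76 for C1QB, 1.23 for CSF1R, -0.54 for CD14, 0.60 for MARCO and -0.65 for CD5L. CSF1R rested on 7 to 39 reads and was at 0.55 with a pseudocount of 1. Without LD1 C1QB was called (2.74, adjusted p = 0.0200 in limma). Lymphocyte markers had a median of 0.16 over all 8 genes listed, with 0.15 for NKG7, the most abundant, 0.30 for CD2, 0.70 for CD79B and -1.64 for CD4, and summed to 95.3 RPKM in JH2 against 23.3 to 44.3 RPKM in the other 5 libraries. Immediate early genes, which rise on handling of tissue, had a median of -0.34 over 7 tested genes of 8 listed, 3 above and 4 below 0. The values were -1.07 for JUN, -1.62 for EGR1, 0.32 for IER2 and 1.06 for ATF3. This list summed to 111, 59.3 and 55.6 RPKM in JH and to 86.1, 170 and 68.9 RPKM in LD. The unadjusted p was under 0.05 for 2, 3, 1 and 3 of these lists' tested genes in turn, against 17.9% of all genes tested. Among the genes of these lists voom called CD4 and no other. The part of cell make-up in the values of FKBP5, SGK1, SERPINA6, AKR1D1 and GLUL was not tested.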

How the data were processed

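Liver mRNA of 3 JH and 3 LD pigs was used; the small RNA libraries were not used here. The authors aligned the reads with TopHat 2.0.13 to the pig genome, counted reads per gene and deposited RPKM values, 1 column per library. Members were matched by symbol. Of 156 listed genes, 9 were matched by gene ID and 6 by an older symbol from RefSeq after the values had been seen, and 14 had no row. The members and lists were chosen with earlier results of these data known. Rows with a duplicated identifier were dropped, leaving 31692.

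A gene was tested where 3 or more libraries reached 0.5 RPKM. The fit used lmFit and trended eBayes of limma 3.58.1 under R 4.3.3, on log2(RPKM + 0.1), two-sided, with Benjamini-Hochberg adjustment over all 12991 genes. No table of counts was used. Exact permutation tests were two-sided. Whole reads were recovered for 16889 of 19612 genes above 0 (86.1%) by searching totals and gene lengths. Reads are not independent molecules, so counting errors cover counting only.

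Named genes were the members and, from each list, every gene called or past the adjusted p alone. The 2 highest in mean RPKM and the 2 farthest from 0 in log2 fold change of each list were named too. So were the 3 genes most alike to each member, leaving out symbols that start with LOC. Others were chosen after their values were seen. Alternatives were other pseudocounts, no filter, quantile normalization, median scaling, a replicate block, voom on recovered reads, no fold change limit and each library left out. Leaving out replicate 3 of both breeds was added after seeing the data. Python 3.11.15, pandas 2.3.3 and numpy 2.4.6 served for tables and matplotlib 3.10.9 for plots.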

Additional observations from a re-analysis of the deposited data

How the results depend on the processing

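NR3C1 and SGK1 kept their direction and were not called under any of 14 alternatives, with log2 fold changes of -0.32 to -0.17 and -0.84 to -0.35 over the fits with 1 library left out. FKBP5 was above 0 in all 14, between 1.46 and 2.27 with 1 library left out, and passed the threshold with voom on recovered reads (1.75) and without LD replicate 3 (2.27); under these 2 alternatives 1 member was called in place of 0. Without replicate 3 of both breeds, an alternative chosen after seeing the data, FKBP5 was at 2.12 (adjusted p = 0.0510 from limma). TSC22D3 turned to -0.092 under quantile normalization and to -0.26 without replicate 3 of both breeds, and lay between -0.39 and 0.31 with 1 library left out. HSD11B1 and KLF15, listed at 0, gave no value under any alternative. SERPINA6 and AKR1D1 were called under all 14 alternatives. GLUL was called under 4 of 14. The number of pathway genes called stayed within 1.5 times of 3 under every alternative, including 2 without replicate 3 of both breeds.

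Over all genes 310 were called, 199 with a pseudocount of 0.01, 200 with no filter on low values, 79 to 406 with 1 library left out and 125 without replicate 3 of both breeds. With the replicate block 253 were called, FKBP5 had an adjusted p of 0.0552 from limma, and GLUL (0.0703), HBB and KLF6 lost their calls while KRT19 gained one (0.0209). Same-numbered JH and LD libraries deviated from their breed means with correlations across genes of -0.0163, 0.0517 and 0.177, and genes are not independent replicates; the pigs were not treated as paired.

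Among other named genes the cases in which the sign turned include the following. Under quantile normalization CRTC2 was at -0.078 and VCAM1 at -0.016. Without replicate 3 of both breeds ERRFI1 was at 0.0094, TAT at -0.036, VCAM1 at -0.24, C1QA at 0.18, IER2 at -0.076, ABCB1 at 0.049 and PCK1 at 1.25. With 1 library left out the ranges were -0.23 to 0.33 for CRTC2, -0.71 to 0.021 for ERRFI1, -0.40 to 0.49 for TAT, -0.21 to 0.88 for TNF, -0.29 to 0.66 for VCAM1, -0.38 to 0.050 for LYVE1, -0.64 to 0.11 for C1QA, -0.46 to 0.83 for CD2, -0.57 to 0.54 for NKG7, -0.43 to 0.83 for IER2, -0.22 to 0.070 for ABCB1 and -1.34 to 1.03 for PCK1. The range also crossed 0 for IGFBP1 (-1.51 to 0.52), CDKN1A (-0.97 to 0.26), CCL2 (-0.56 to 0.38), ICAM1 (-0.026 to 0.43) and EMCN (-0.020 to 0.17). The cause of these changes was not tested. With 3 pigs per breed, a gene that missed the threshold was not shown to be equal in the breeds.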

Other observations

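The families of FKBP5 and KLF15 were looked at after the values of the members had been seen. The table holds 13 FKBP genes, of which 12 were tested and 0 called by limma, with a median log2 fold change of -0.20. An unadjusted p under 0.05 was found for 4 of the 12, against 17.9% of all genes tested, and voom called 1, which was FKBP5. Of the 12, 4 were above 0, and 3 under quantile normalization. FKBP5 had the largest log2 fold change above 0, and next came FKBP7, an endoplasmic reticulum member, at 19.2, 20.6 and 14.5 RPKM in JH and 12.6, 8.53 and 9.43 RPKM in LD (log2 fold change 0.83, adjusted p = 0.145 from limma). FKBP10, a chaperone of collagen, lay on the other side with 0.184, 0.272 and 0.955 RPKM in JH and 1.636, 2.006 and 1.201 RPKM in LD (log2 fold change -1.80, adjusted p = 0.130 from limma). Without JH3 it was called, with -2.37 and an adjusted p of 0.0398.

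Of 17 KLF genes in the table, 3 were listed at 0, among them KLF15, and 11 were tested. Of the 11, 3 were above 0, and 2 under quantile normalization, with a median log2 fold change of -0.41. KLF6, a zinc finger factor known from stellate cells and hepatocytes, was the 1 called, at 3.39, 3.73 and 3.17 RPKM in JH and 7.30, 9.27 and 6.91 RPKM in LD (log2 fold change -1.16, adjusted p = 0.0446 from limma). The call was kept in 3 of 14 alternatives and lost without each of the 6 libraries in turn, with adjusted p of 0.0678 to 0.160, though all JH values lay below all LD values. The part of cell make-up in the value of KLF6 was not tested.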
